A study of Mus musculus with 27 samples.

Results

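The lysosome genes described here are 41 genes that encode the enzymes, membrane proteins, proton pump and transcription factors of the lysosome. They were taken from a list that was chosen with earlier results of these data known. Counts set beside the share of all genes are therefore a description. The list held 9 cathepsins, 10 other hydrolases, 10 membrane or cargo proteins and 6 subunits of the vacuolar proton pump (V-ATPase). It also held 2 mucolipin channels and 4 factors of the MiT/TFE family. Each gene was read from 1 probe set, the set of array probes for a transcript, that was annotated to that symbol only. Where a gene had several such probe sets, the one with the highest mean log2 signal was used. All 41 were found among the 19935 genes on the array, and only Mitf had 2 probe sets.

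Expression was measured in total RNA of bone marrow cells from 27 one-colour Affymetrix arrays, in 9 groups of 3. The cells came from femurs and tibiae of C57BL/6 mice aged 8 to 12 weeks. In 4 groups the cells received both Flt3-L and cyclosporin A (CsA) and were collected at 12 h, 24 h, 48 h and 11 days. Another 4 groups received Flt3-L without CsA for the same times, and the last group was unstimulated marrow. Flt3-L, a growth factor that drives marrow progenitors towards dendritic cells, was supplied at about 200 ng/ml from transfected B16 tumour cells, so other products of those cells cannot be told apart from it. CsA was given at 2 µg/ml, starting 30 min ahead of Flt3-L and continuing to the end of the culture. The labels do not say whether unstimulated cells were kept in culture. No group is labelled as cultured without Flt3-L for these times. Effects of time in culture therefore cannot be told apart from those of Flt3-L. The design text calls the 3 arrays of a group biological replicates without stating that they came from separate mice, and p-values measure only the spread between these samples.

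Lysosomes are acidic organelles in which imported and cellular material is digested. The V-ATPase pumps protons into them, hydrolases cut proteins, lipids and sugars, and membrane proteins export the products and protect the membrane. The MiT/TFE factors Mitf, Tfeb, Tfe3 and Tfec bind short E-box sequences in the promoters of many lysosome genes. Calcium released through the mucolipin channel Mcoln1 is known to activate the phosphatase calcineurin, which lets Tfeb enter the nucleus, and CsA inhibits calcineurin. Macrophages and dendritic cells are rich in lysosomes, which degrade engulfed material and prepare antigen for presentation.

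The deposited signals are on a linear scale. Their median per array was 114.2 to 124.8, and the lowest signal of any probe set was 5.2. Of the 27 arrays, 26 correlated best with an array of their own group. The third array of CsA at 12 h correlated best with the third array of Flt3-L at 12 h, and the calls for that comparison are given with and without it. Signals of different probe sets were not compared with each other, since each probe set has its own brightness. In these mixed cultures fewer cells of a type and less RNA per cell cannot be told apart.

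For most of the 41 genes, Flt3-L cultures held higher signals than unstimulated marrow, and the median difference was larger at each later time. With Flt3-L alone, 32 of the 41 genes were higher and 2 lower at 12 h. At 24 h, 36 were higher and 1 lower, and at 48 h 38 were higher and 1 lower. At 11 days 39 were higher and none was lower. These calls are at an adjusted p under 0.05 in limma with Benjamini-Hochberg adjustment over all 19935 genes. Over all genes the share called higher was 17.8% at 12 h, 17.9% at 24 h, 18.5% at 48 h and 27.2% at 11 days, and the share called lower was 18.1%, 17.7%, 18.6% and 24.8% at the same times. The median log2 difference of the 41 genes was 0.38 at 12 h, 0.60 at 24 h, 0.88 at 48 h and 1.35 at 11 days, while the median over all genes lay between 0.01 and 0.05. Differences of at least 2-fold with a call in the higher direction were found for 3, 8, 13 and 29 of the 41 genes in time order. The matching shares of all genes were 0.677%, 1.23%, 2.29% and 6.82%. By mean signal over the 27 arrays, the 41 genes stood between the 62.5th (Ctsk) and the 100.0th percentile (Psap) of all genes. The shares over all genes thus include many dimmer genes. The 4 comparisons share the same 3 unstimulated arrays. At all 4 times 32 genes were called higher, and without CsA 38 of the 41 had their highest mean at 11 days. The share of all genes that met either condition was not counted.

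**Figure D1:**
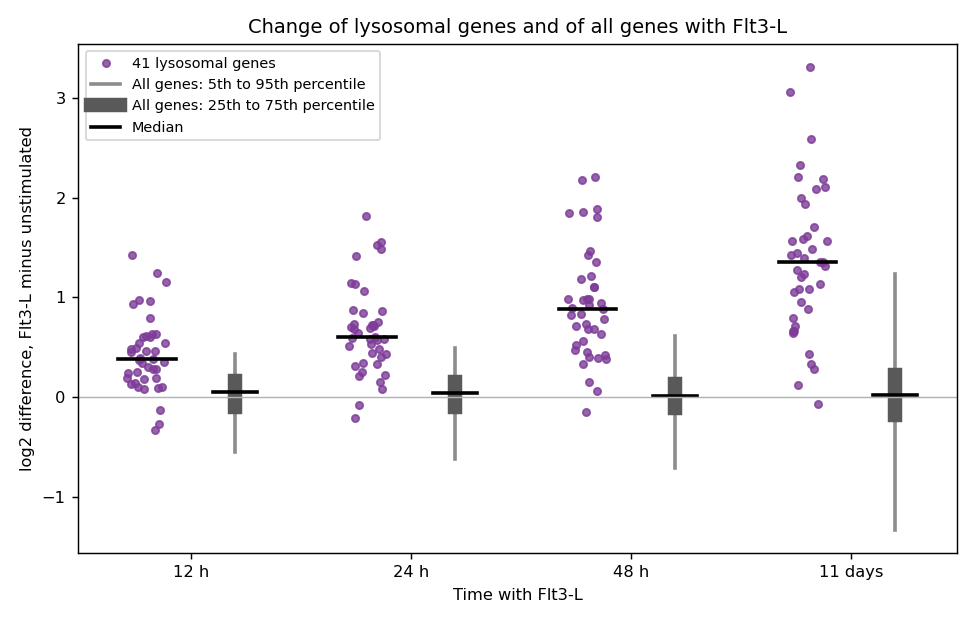
Log2 difference between Flt3-L cultures without CsA and unstimulated cells (vertical axis) by time, with 1 point for each of the 41 lysosome genes and, beside them, grey bars for the 5th to 95th and the 25th to 75th percentile of all 19935 genes. Black lines mark medians, which run from 0.38 to 1.35 for the lysosome genes and stay between 0.01 and 0.05 for all genes.

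**Figure D2:**
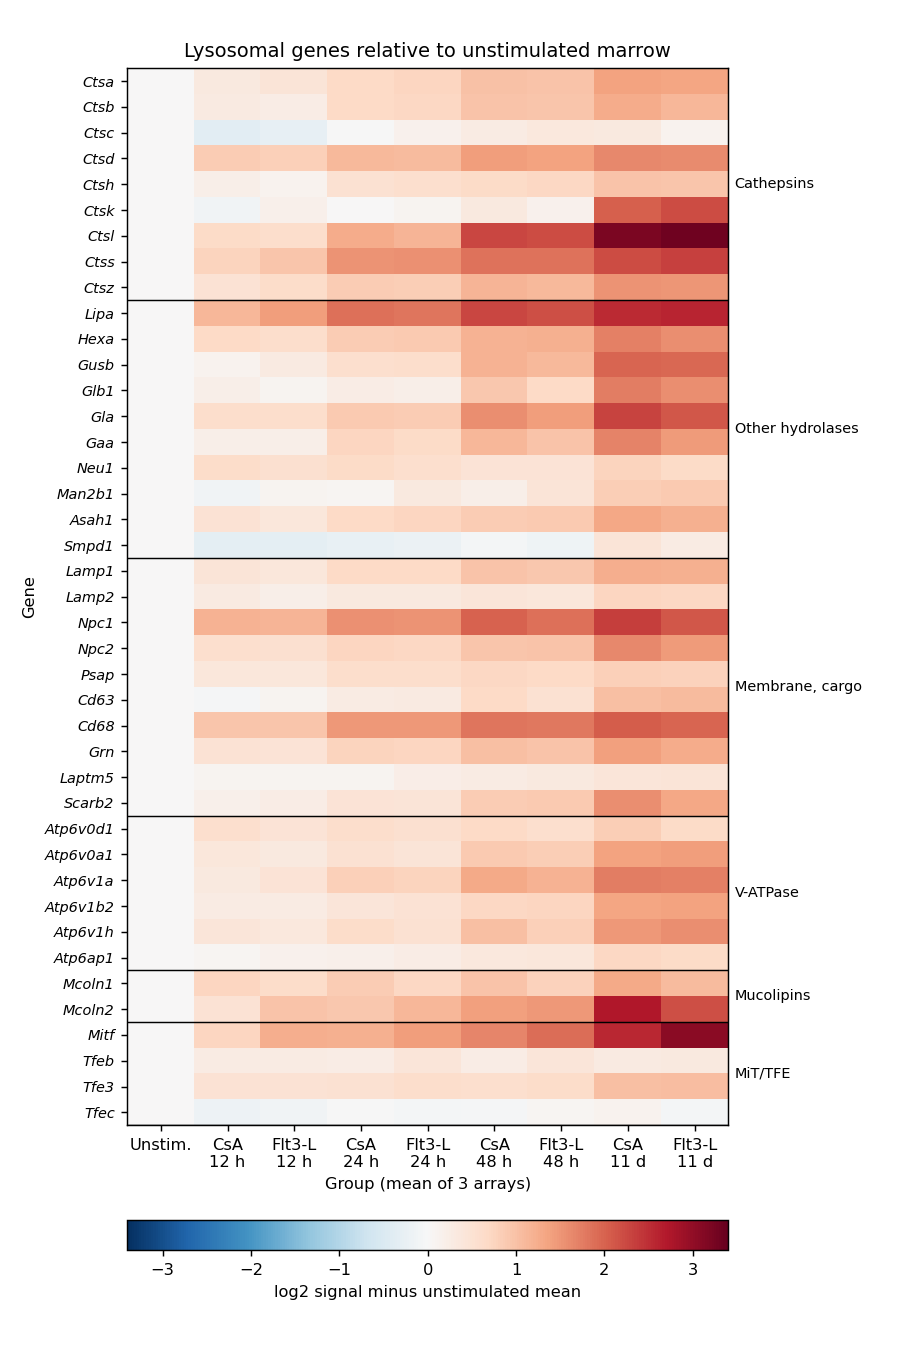
Mean log2 signal of 3 arrays minus the mean of unstimulated cells, for the 41 lysosome genes (rows, by role) in the 9 groups (columns). Red is higher and blue lower than unstimulated; at each time the CsA column stands left of Flt3-L alone, and most rows grow redder with time in both.

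Among the cathepsins, the proteases of the lysosome, 8 of 9 were higher at 11 days of Flt3-L than in unstimulated cells, with a median log2 difference of 1.49. Ctsl, a cysteine protease that also trims the invariant chain of antigen-presenting molecules, showed the largest difference of the 41 genes. Its signal was 774, 864 and 798 in unstimulated cells, 1208, 1272 and 1236 at 12 h, 1879, 1729 and 1764 at 24 h, 4226, 3508 and 3557 at 48 h, and 7342, 8510.3 and 8264 at 11 days of Flt3-L. No array overlapped with one of another time, and the last group stood 9.89-fold above unstimulated cells (log2 3.31, SE 0.076, limma adjusted p = 5.6e-22). Ctss, which completes invariant chain cleavage in dendritic cells and macrophages, gave 1171, 1306 and 1202 in unstimulated cells and 2402, 2324 and 2266 after 12 h of Flt3-L. It reached 3531, 3654 and 3628 at 24 h, 4322, 4349 and 4605 at 48 h, and 6147, 5982 and 6416 at 11 days. The 5 groups did not overlap, and the 11-day level was 5.04-fold that of unstimulated cells (log2 2.33, SE 0.047, limma adjusted p = 4.3e-23). Ctsd, an aspartic protease, had a log2 difference of 0.79 at 12 h and 1.62 at 11 days. Ctsa, Ctsb, Ctsh and Ctsz were called higher at 24 h, 48 h and 11 days, with 11-day log2 differences between 0.95 for Ctsh and 1.49 for Ctsz.

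Ctsk, the collagen-degrading protease best known from osteoclasts, differed from the other cathepsins in its timing. Its signal was 151, 192 and 256 in unstimulated cells, 217, 221 and 228 at 12 h, 192, 228 and 201 at 24 h, and 213, 211 and 226 at 48 h of Flt3-L. At 11 days it was 1004, 847 and 869. The first 4 groups overlapped, and only the last stood apart, 4.63-fold above unstimulated cells. Against unstimulated cells the log2 difference was 0.18 at 12 h, 0.08 at 24 h and 0.15 at 48 h, with limma adjusted p between 0.26 and 0.66, and 2.21 at 11 days (SE 0.12, limma adjusted p = 2e-14). The difference between 11 days and 48 h was 2.06 (SE 0.12, limma adjusted p = 2.6e-13). A list of 8 osteoclast markers, including Acp5, Calcr and Nfatc1, summed to 5722 to 5958 at 11 days of Flt3-L and to 8196 to 8804 in unstimulated cells, with 3 markers higher and 3 lower. Dcstamp, needed for the fusion of osteoclasts, was 5.93-fold higher (log2 2.57), Acp5 was higher by 0.54 and Ocstamp by 0.31. Mmp9, which also stands in the list of neutrophil genes, had a log2 difference of -1.39. Oscar and Nfatc1 were lower as well (log2 -0.34 and -0.15), and Calcr and Itgb3 were not called. The part of these markers in the Ctsk result was not tested.

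Ctsc, the dipeptidase that activates the serine proteases of neutrophil granules, was the only cathepsin with a lower call against unstimulated cells. It gave 1974, 1894 and 1719 at 12 h of Flt3-L, against 2155, 2373 and 2184 in unstimulated cells, without overlap (log2 -0.27, SE 0.074, limma adjusted p = 0.0061). At 48 h it was higher than in unstimulated cells, with 3015, 2835 and 2852 (log2 0.38, limma adjusted p = 0.00018). At 11 days it gave 2240, 2365 and 2719.8 and was lower than at 48 h (log2 -0.25, SE 0.074, limma adjusted p = 0.0065). The 11-day arrays overlapped with unstimulated cells (log2 0.12, adjusted p = 0.18). Without the first 11-day array the difference from 48 h was -0.19 with an adjusted p of 0.058. A list of 12 neutrophil and granule genes, among them Elane, Prtn3 and Ctsg, summed to 66486 to 67260 in unstimulated cells, 56453 to 57886 at 12 h, 44498 to 47558 at 48 h and 4658 to 5132 at 11 days of Flt3-L. All 12 were lower at 11 days, and their part in the Ctsc values was not tested.

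All 10 of the other hydrolases were higher at 11 days than in unstimulated cells, with a median log2 difference of 1.5. Lipa, the acid lipase that frees cholesterol and fatty acids from lipoprotein lipids, was the gene with the largest difference at 12 h. It gave 1391, 1215 and 1313 in unstimulated cells, 3638, 3381 and 3532 at 12 h, 4408, 4675 and 4690.2 at 24 h, 5794, 5923 and 6009 at 48 h, and 7815, 7753 and 8038 at 11 days. None of these groups overlapped. The difference was 2.70-fold at 12 h (log2 1.43, SE 0.054, limma adjusted p = 2.1e-16) and 6.03-fold at 11 days (log2 2.59, SE 0.054, limma adjusted p = 6.8e-23). Gla, the enzyme missing in Fabry disease, gave 673, 812 and 629 in unstimulated cells, 1183, 1292 and 1345 at 24 h, 1836, 1832 and 1997 at 48 h and 3043, 2899.7 and 3032 at 11 days (log2 2.09 over unstimulated cells). Gusb, which cuts glucuronides, gave 559, 648 and 627 in unstimulated cells, 919.6, 937 and 910.4 at 24 h, 1309, 1264 and 1359 at 48 h and 2511, 2228 and 2275 at 11 days (log2 1.94). Neither gene overlapped between these groups, and both rose between 24 h and 48 h, Gla by 0.57 and Gusb by 0.51 on the log2 scale.

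Hydrolases differed in when they rose. Glb1, the lysosomal beta-galactosidase, gave 561, 544 and 560.2 at 12 h, against 504, 541 and 526 in unstimulated cells, which was not called although the arrays did not overlap (log2 0.08, adjusted p = 0.26). It gave 625, 618 and 569 at 24 h, 823, 830.1 and 863 at 48 h and 1648, 1456 and 1620.4 at 11 days, and was higher at each of these times than in unstimulated cells (log2 0.21, 0.68 and 1.59). Neu1, a sialidase, ran the other way: 538, 598 and 558 in unstimulated cells, 835, 806 and 818 at 12 h, 804, 868 and 866 at 24 h, 739, 779.8 and 820.1 at 48 h and 913, 829 and 931 at 11 days. Its log2 difference from unstimulated cells was 0.54 at 12 h, 0.58 at 24 h, 0.47 at 48 h and 0.66 at 11 days, so most of the 11-day difference was present by 12 h. Smpd1, the acid sphingomyelinase, was the only 1 of these 10 hydrolases with lower calls against unstimulated cells. It gave 774, 872 and 866 at 12 h of Flt3-L, against 981, 1109 and 1060.4 in unstimulated cells, without overlap (log2 -0.33, SE 0.059, limma adjusted p = 8.4e-05). It was 909, 918 and 888 at 24 h (log2 -0.21, adjusted p = 0.0056), and 1209, 1283 and 1324 at 11 days (log2 0.28, limma adjusted p = 0.00025). Its 48 h arrays overlapped with unstimulated cells, and the lower call there (log2 -0.15, adjusted p = 0.043) was lost in 5 of 14 alternative settings.

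Measured as the share of its 11-day log2 difference, the median gene of the 39 called at 11 days had reached 30.9% at 12 h, 51.7% at 24 h and 69.0% at 48 h. These shares rest on the same unstimulated arrays and are given as a description. Lipa stood at 55.2% at 12 h and Npc1 at 54.7%, and Neu1 at 82.0%, while Glb1 stood at 5.3% and Ctsk at 8.3%. From step to step, 23 genes were higher at 24 h than at 12 h and none lower (5.59% and 5.52% of all genes). At 48 h 27 were higher than at 24 h and none lower (9.71% and 7.43%), and at 11 days 36 were higher than at 48 h and 1, Ctsc, lower (24.2% and 18.8%). The largest of these steps were 0.63 for Ctss between 12 h and 24 h, 1.07 for Ctsl between 24 h and 48 h, and 2.06 for Ctsk between 48 h and 11 days. In all 3 steps 19 genes were called higher, and the matching share of all genes was not counted. Between 12 h and 24 h Gaa, Ctsh and Ctsb followed Ctss, Cd68 and Ctsl, each with a log2 difference of 0.45. Gaa gave 609, 637 and 601 at 24 h, against 468, 430.1 and 451 at 12 h. Ctsh gave 1985, 2042 and 1957 at 24 h, against 1467, 1481 and 1447 at 12 h. Ctsb gave 6944, 6929 and 7385 at 24 h, against 5430.4, 4918 and 5172 at 12 h. In none of these 3 genes did the groups overlap. Mitf was called in the later steps only, by 0.47 and 1.17, and Tfe3 only between 48 h and 11 days, by 0.42, while Tfeb and Tfec passed in no step.

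**Figure D3:**
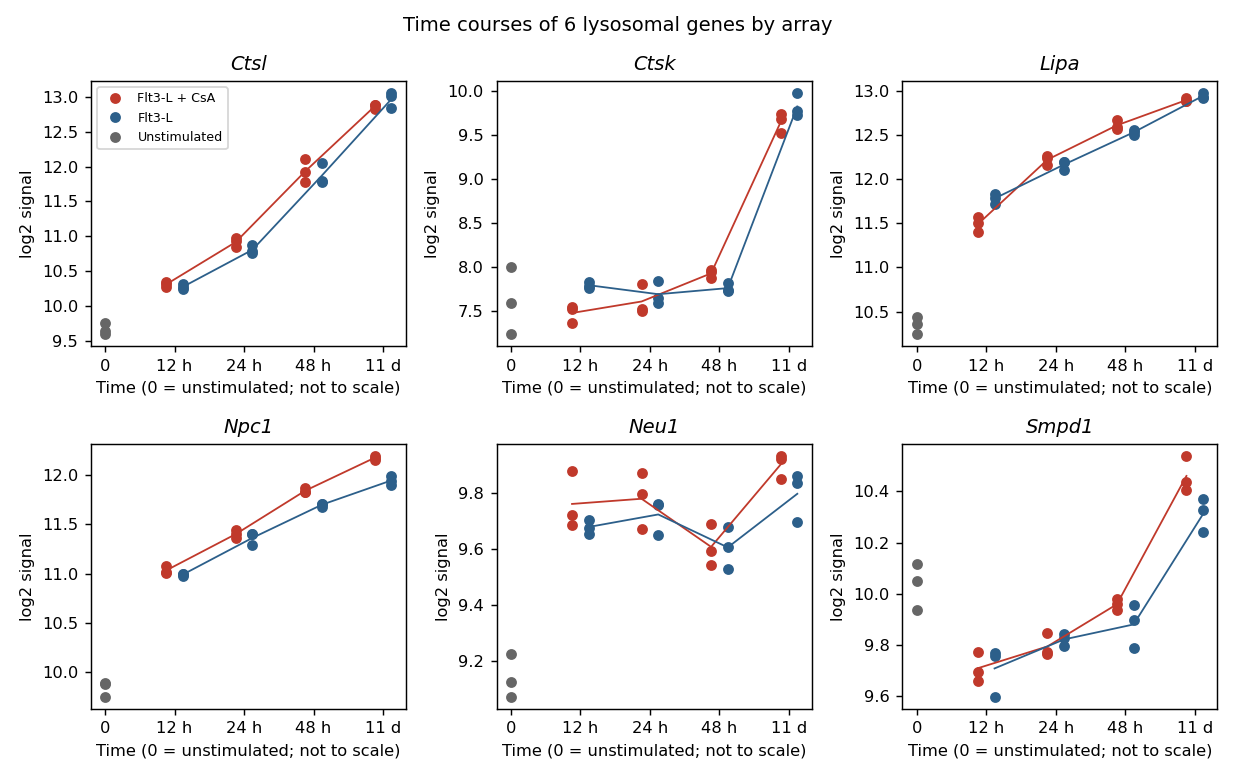
Log2 signal of Ctsl, Ctsk, Lipa, Npc1, Neu1 and Smpd1 in each array (points) with lines through group means, by time in culture; times are evenly spaced, not to scale, and 0 is unstimulated marrow. Ctsl, Lipa and Npc1 climb at every time, Ctsk stays level to 48 h and stands apart at 11 days, and Smpd1 lies below unstimulated cells at 12 h and 24 h.

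All 10 membrane and cargo proteins were higher at 11 days of Flt3-L than in unstimulated cells, with a median log2 difference of 1.23. Npc1, which carries cholesterol across the lysosomal membrane, gave 862, 946 and 940.1 in unstimulated cells, 2015, 2046 and 2050.3 at 12 h, 2502, 2707 and 2703 at 24 h, 3286, 3345 and 3354 at 48 h and 4077, 3829.9 and 3944 at 11 days. These 5 groups did not overlap, and the 11-day level was 4.31-fold that of unstimulated cells (log2 2.11, SE 0.046, limma adjusted p = 2.1e-22). Its soluble partner Npc2 had a log2 difference of 1.45 at 11 days. Cd68, a glycoprotein of macrophage and dendritic cell lysosomes, gave 3532, 3769 and 3487 at 12 h, 5383, 5179 and 5020.0 at 24 h, 6382, 6798 and 6285 at 48 h, and 7257, 7340.1 and 7618 at 11 days, against 1940.4, 1821 and 1801 in unstimulated cells. Its groups did not overlap either, and the log2 differences were 0.96 at 12 h, 1.49 at 24 h, 1.81 at 48 h and 2.00 at 11 days. Lamp1, the abundant protein of the lysosome membrane, had 5675, 5548 and 5791 at 11 days, against 2548, 2420.1 and 2450.3 in unstimulated cells (log2 1.20, SE 0.047, limma adjusted p = 2.4e-17). Lamp1 was higher at each earlier time as well, by 0.37, 0.68 and 0.92 in time order. Lamp2 reached 0.71 and Laptm5 0.43, the smallest 11-day difference in this group.

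The 6 V-ATPase subunits were called higher at all 4 times. Atp6v1a, the catalytic subunit of the pump head, gave 1816, 1831 and 1941 at 12 h and 4427, 4436 and 4241 at 11 days, against 1262, 1384 and 1375 in unstimulated cells. The groups did not overlap, and the log2 difference was 0.48 at 12 h and 1.71 at 11 days (SE 0.049). The membrane subunit Atp6v0d1 had one of the smallest 11-day differences, 0.66, of which 70.8% was present at 12 h. Atp6v1h, Atp6v0a1 and Atp6v1b2 had 11-day differences of 1.57, 1.40 and 1.36, and the accessory protein Atp6ap1 had 0.64.

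The 4 MiT/TFE factors behaved unlike one another. Mitf gave 202, 215 and 199 in unstimulated cells, 488, 493 and 474 at 12 h, 569.9, 557 and 524 at 24 h, 778, 754 and 747 at 48 h and 1752, 1725 and 1649 at 11 days. None of these groups overlapped, and the 11-day level was 8.33-fold that of unstimulated cells (log2 3.06, SE 0.073, limma adjusted p = 1.1e-21), the second largest difference of the 41 genes. Tfe3 gave 989, 945 and 939 at 12 h and 1423, 1323 and 1495 at 11 days, against 689, 675 and 681 in unstimulated cells (log2 0.49 and 1.05). Tfeb was higher by 0.28 at 12 h, 0.40 at 24 h, 0.42 at 48 h and 0.33 at 11 days, with 11-day signals of 501, 463 and 508, against 381, 409 and 383 in unstimulated cells. Tfec, a family member expressed in macrophages, gave 1298, 1165 and 1151 at 11 days, against 1286, 1319.8 and 1193 in unstimulated cells. It was not called at any time, and its log2 differences lay between -0.13 and 0.06. Tfe3 and Mitf each stood clear of unstimulated cells in every array, and Tfec overlapped with them at 24 h, 48 h and 11 days.

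Both mucolipin channels were higher throughout. Mcoln1 gave 1479, 1418 and 1429 at 12 h and 2176, 1759.5 and 1995 at 11 days, against 908, 930.3 and 954 in unstimulated cells (log2 0.63 and 1.08). Mcoln2, a related channel of endosomes and lysosomes, gave 413, 354 and 406 at 12 h and 1008, 812 and 923 at 11 days, against 176, 214 and 210 in unstimulated cells. Neither channel overlapped with unstimulated cells, and the Mcoln2 log2 difference was 0.97 at 12 h and 2.19 at 11 days (SE 0.094, limma adjusted p = 1.4e-16).

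**Figure D4:**
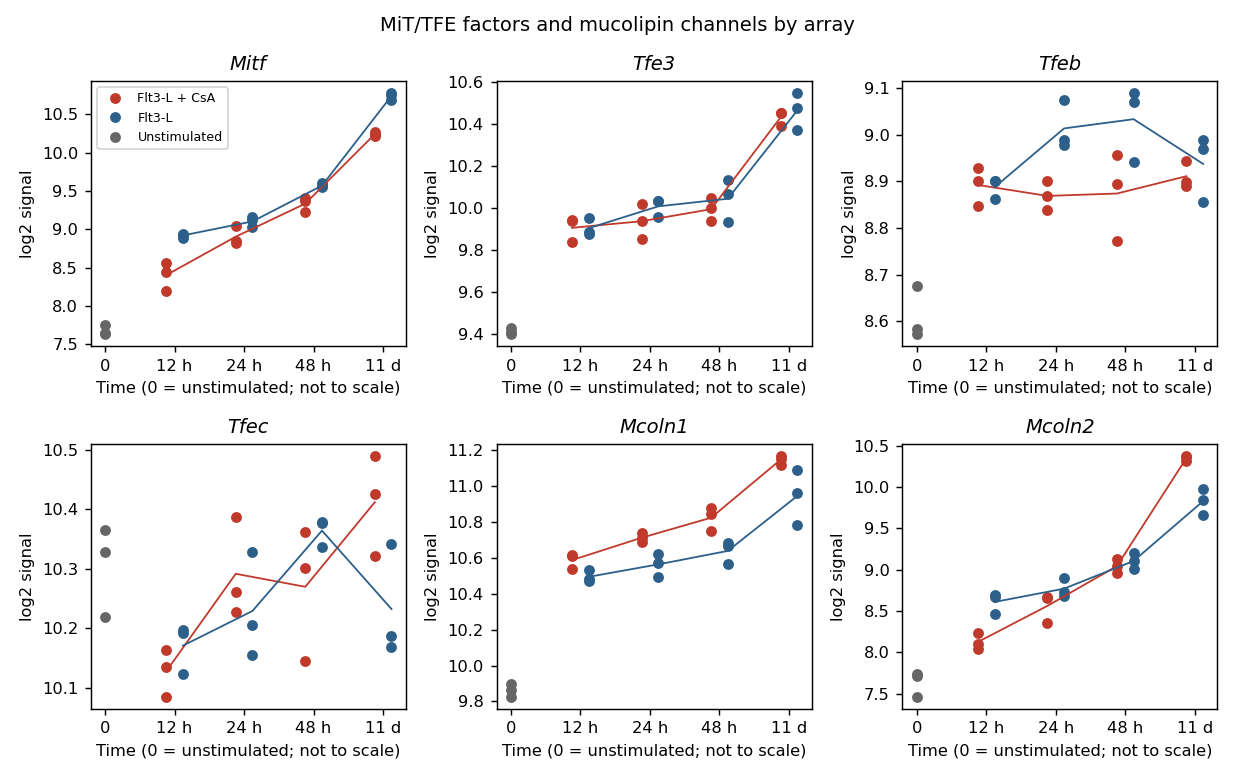
Log2 signal of the MiT/TFE factors Mitf, Tfe3, Tfeb and Tfec and of the channels Mcoln1 and Mcoln2 in each array, with lines through group means, by time (evenly spaced, not to scale). Red is Flt3-L with CsA, blue Flt3-L alone and grey unstimulated marrow. The vertical scale differs between panels. Red lies below blue for Mitf at 12 h and 11 days, and for Mcoln2 below at 12 h and above at 11 days.

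MiT/TFE factors bind an E-box whose core is CACGTG, most readily when T stands before it, as in TCACGTG. Promoter sequences from RefSeq (GRCm38.p6) were at hand for 35 of the 41 genes, and the 250 bases before each listed start were searched on both strands. The 35 genes had 42 such stretches, 5 genes having several, and a gene was counted if any stretch held the motif. Some listed starts are alternative ones, so that the stretch with the motif overlapped the gene itself for Ctsa and Atp6v1a, and for Ctsl and Mcoln2, which held CACGTG only. The motif TCACGTG, which contains CACGTG, was found for 8 of the 35 genes (22.9%), against 695 of 15612 genes (4.45%), and CACGTG for 10 of 35 (28.6%), against 1266 (8.11%). TCATGTG, the M-box, was found for 3 genes (8.6%), Gla, Grn and Scarb2, against 2.95% of all genes. Some of the stretches with TCACGTG are shown because they hold the motif in genes of different roles: a membrane protein, a channel, a protease and 2 hydrolases. In each line the motif matches are in capitals and the gene start follows the last base.
Lamp1, chr8:13158911-13159160, + strand: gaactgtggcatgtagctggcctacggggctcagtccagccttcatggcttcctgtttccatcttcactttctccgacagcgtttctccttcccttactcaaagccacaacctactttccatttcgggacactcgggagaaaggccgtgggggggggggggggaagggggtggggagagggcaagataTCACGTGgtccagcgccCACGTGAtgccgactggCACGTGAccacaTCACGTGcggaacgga
Mcoln1, chr8:3500269-3500518, + strand: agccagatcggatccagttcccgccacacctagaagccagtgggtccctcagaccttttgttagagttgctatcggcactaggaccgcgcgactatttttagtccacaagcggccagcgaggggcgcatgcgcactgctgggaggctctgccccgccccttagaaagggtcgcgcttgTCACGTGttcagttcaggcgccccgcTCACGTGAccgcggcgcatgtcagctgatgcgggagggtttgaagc
Ctsd, chr7:142387828-142388077, - strand: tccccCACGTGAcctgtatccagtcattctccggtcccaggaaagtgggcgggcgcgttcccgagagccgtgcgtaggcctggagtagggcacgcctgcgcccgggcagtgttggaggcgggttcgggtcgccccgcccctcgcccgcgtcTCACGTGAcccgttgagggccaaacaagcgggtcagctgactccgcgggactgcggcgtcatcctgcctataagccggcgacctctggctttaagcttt
Gaa, chr11:119267713-119267962, + strand: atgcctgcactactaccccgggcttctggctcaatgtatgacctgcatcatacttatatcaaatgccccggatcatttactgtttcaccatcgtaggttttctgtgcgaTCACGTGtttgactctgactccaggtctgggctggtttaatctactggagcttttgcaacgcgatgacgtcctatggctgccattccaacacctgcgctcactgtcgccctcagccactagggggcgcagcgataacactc
Glb1, chr9:114400828-114401077, + strand: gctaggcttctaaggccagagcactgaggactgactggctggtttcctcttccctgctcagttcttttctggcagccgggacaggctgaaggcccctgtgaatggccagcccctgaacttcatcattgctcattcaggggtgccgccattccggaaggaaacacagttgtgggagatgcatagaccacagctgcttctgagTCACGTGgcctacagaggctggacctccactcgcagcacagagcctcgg
Lamp1 held 4 copies of the core, starting 61, 45, 28 and 15 bases before the gene start. Mcoln1 held 2, at 71 and 45, and Ctsd 2, at 245 and 98. Gaa had 1 at 140 and Glb1 1 at 48. The other 3 genes with TCACGTG were Ctsa, Gla and Atp6v1a. All 8 were called higher at 11 days of Flt3-L, with log2 differences from 1.08 to 2.09 and a median of 1.51. Of the 27 genes without it 25 were called higher. The log2 differences of these 27 ran from -0.07 to 3.31, with a median of 1.27. For CACGTG the medians were 1.6 with the motif and 1.08 without it, and for the M-box 1.31 and 1.38. A match is a description of the letters, and no binding was measured.

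Lysosome genes outside the 41 were read from further lists. Of 22 other hydrolases, 21 were higher and 1 lower at 11 days than in unstimulated cells. The protease Lgmn had a log2 difference of 3.03, the phosphatase Acp2 2.64 and Galc, which cuts galactosylceramide, 2.61. Arsb, an arylsulfatase, was lower by 0.50 (log2 -0.50). Of 13 other V-ATPase genes 12 were higher, led by Atp6v0d2, an alternative subunit of macrophages and osteoclasts, at 5.65 (50.1-fold). Of 14 other membrane proteins 11 were higher and 1 lower, with 2.10 for the sialic acid exporter Slc17a5 and 1.87 for the chloride exchanger Clcn7. Of 9 sorting genes 8 were higher, with 1.88 for Igf2r, the receptor that delivers enzymes tagged with mannose 6-phosphate. Genes that couple lysosomes to nutrient sensing were higher in 10 of 12 cases, Rragd at 2.10 and Fnip2 at 1.81. The cathepsin inhibitors were split, with Cstb at 2.74 and Cst7 at -2.91. Autophagy genes were split as well, 7 higher and 6 lower of 13, with Gabarapl1 at 2.03 and Atg9a at -1.06. The background for these counts is 27.2% higher and 24.8% lower.

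Marker genes of other cell types moved over the same times. The summed signal of 13 monocyte and macrophage markers, such as Csf1r, Mertk and Msr1, was 9267 to 9470 in unstimulated cells, 17413 to 18168 at 12 h, 23621 to 24030 at 24 h, 29466 to 30075 at 48 h and 41883 to 43281 at 11 days of Flt3-L. Such a sum gives bright probe sets more weight. At 12 h 9 of the 13 were higher, Gpnmb by 30.1-fold, and 1, Mrc1, was lower (log2 -1.73). Mertk was not called at 12 h (log2 -0.35). At 11 days 10 of the 13 were higher and 2 lower, Cx3cr1 (log2 -1.57) and Ccr2 (log2 -0.60). The sum of 12 conventional dendritic cell markers was 10584 to 10860 in unstimulated cells and 24613 to 26034 at 11 days, with all 12 higher. The sum of 8 erythroid markers was 28599 to 31425 in unstimulated cells and 3685 to 3918 at 11 days. No signal on these arrays reaches 0, so absence of a marker cannot be read. The part of these markers in the lysosome values was not tested.

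CsA changed few of the 41 genes, but the share called lower at 12 h and higher at 11 days was above that of all genes. Both directions together, 12.2% of the 41 were called at 12 h, 2.44% at 24 h, 4.88% at 48 h and 17.1% at 11 days. At 12 h none was higher and 5 were lower than with Flt3-L alone, where 2.82% of all genes were higher and 3.91% lower. At 24 h none was higher and 1 lower (1.60% and 2.19% of all genes), and at 48 h 1 was higher and 1 lower (2.17% and 2.35%). At 11 days 6 were higher and 1 lower (4.92% and 7.08%). The median absolute log2 difference was 0.08 at 12 h, 0.05 at 24 h, 0.06 at 48 h and 0.10 at 11 days, against 0.10, 0.06, 0.06 and 0.09 over all genes. The 95% confidence interval of the CsA difference lay inside plus or minus 0.5 on the log2 scale (1.41-fold) for 38 genes at 12 h, all 41 at 24 h and 48 h, and 39 at 11 days. Lamp1, Ctsl, Tfe3 and Tfec had no CsA call at any time. For Lamp1 the interval was -0.02 to 0.17 at 12 h and -0.06 to 0.13 at 11 days, and for Ctsl it was -0.12 to 0.19 and -0.26 to 0.05. Tfe3 had intervals of -0.12 to 0.12 and -0.15 to 0.09 at these times. Tfec differed by 0.18 at 11 days (adjusted p = 0.077), with 1439, 1375 and 1279 with CsA, against 1298, 1165 and 1151 without it, and these arrays overlapped.

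**Figure D5:**
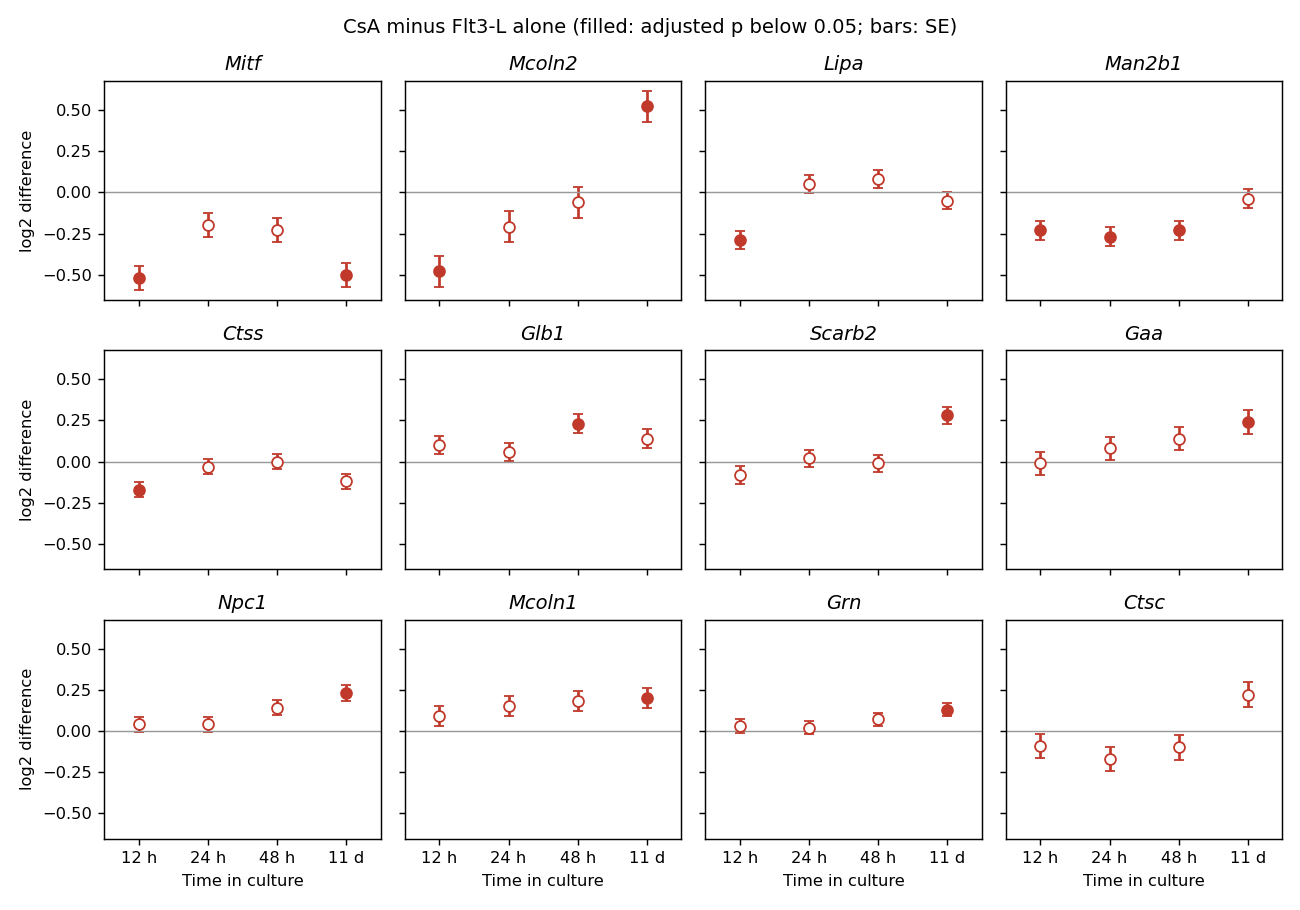
Log2 difference between cultures with CsA and without it, by time with Flt3-L, for the 11 genes called at any time and for Ctsc. Bars are SE from the limma fit over 3 arrays a group, and filled points passed an adjusted p of 0.05. Mcoln2 crosses from below 0 at 12 h to above 0 at 11 days, while Mitf lies below 0 at all 4 times.

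The factor Mitf was the gene most reduced by CsA at both ends of the culture. At 12 h it gave 379, 349 and 294 with CsA, against 488, 493 and 474 with Flt3-L alone, without overlap (1.43-fold lower, log2 -0.52, SE 0.073, limma adjusted p = 0.00018). At 11 days it gave 1229, 1192 and 1209 with CsA, against 1752, 1725 and 1649 without it, again without overlap (1.41-fold lower, log2 -0.50, SE 0.073, limma adjusted p = 1.7e-05). At 24 h the difference was -0.20 (adjusted p = 0.16) and at 48 h -0.23 (adjusted p = 0.069, or 0.023 with the replicate number as a block). A second Mitf probe set lay near the lowest signals of the arrays, between 9.8 and 12.4 in every array other than those of 11 days, and its differences are not read here. Averaging it with the first gave a 12 h difference of -0.20 with an adjusted p of 0.21. Tfeb gave 474, 478 and 493 with CsA at 11 days, against 501, 463 and 508 without it, with overlap. It differed by 0.01 at 12 h, -0.14 at 24 h, -0.16 at 48 h and -0.03 at 11 days, with no call (lowest adjusted p = 0.11). Its interval was -0.27 to -0.05 at 48 h and -0.14 to 0.09 at 11 days.

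Mcoln2 was lower with CsA at 12 h and higher at 11 days. It gave 300.2, 275 and 264 with CsA at 12 h, against 413, 354 and 406 with Flt3-L alone (1.40-fold lower, log2 -0.48, SE 0.094, limma adjusted p = 0.0037). At 11 days it gave 1332, 1318 and 1274 with CsA, against 1008, 812 and 923 without it (1.44-fold higher, log2 0.52, SE 0.094, limma adjusted p = 0.00026). Arrays with and without CsA overlapped at neither time. At 24 h and 48 h the differences were -0.21 and -0.06, without a call. The 11-day CsA difference exceeded the average of those at 12 h, 24 h and 48 h by 0.77 (SE 0.11, limma adjusted p = 1.5e-05). In this test of the change in CsA difference, 4 of the 41 genes were higher (5.21% of all genes) and none lower (6.7%). Mcoln1 was higher with CsA at 11 days, with 2221, 2274 and 2299, against 2176, 1759.5 and 1995 without it (log2 0.20, SE 0.060, limma adjusted p = 0.026). Leaving out the second Flt3-L array ended that call, as did 5 of the other alternatives.

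The other 3 genes lowered by CsA at 12 h were 2 hydrolases and a cathepsin. Lipa gave 3032, 2901 and 2699 with CsA, against 3638, 3381 and 3532 with Flt3-L alone (1.22-fold lower, log2 -0.29, SE 0.054, limma adjusted p = 0.0024). Its difference was 0.05 at 24 h, 0.08 at 48 h and -0.05 at 11 days, without a call. Ctss gave 2071, 2126 and 2032 with CsA, against 2402, 2324 and 2266 without it (log2 -0.17, SE 0.047, limma adjusted p = 0.036), and lost its call in 8 of 14 alternatives. None of these groups overlapped. Man2b1, which trims mannose sugars from glycoproteins, was the only gene of the 41 lower with CsA at 12 h, 24 h and 48 h. It gave 2339, 2647 and 2553 with CsA at 12 h, against 2764, 3040.3 and 3012 without it (log2 -0.23, limma adjusted p = 0.021). At 24 h it gave 2731, 2842 and 3004 with CsA, against 3415, 3407 and 3545 without it (log2 -0.27, limma adjusted p = 0.0043). At 48 h it gave 3109, 3259 and 3157 with CsA, against 3633, 3678 and 3876 without it (log2 -0.23, limma adjusted p = 0.015). The arrays did not overlap at these times, and at 11 days they did, with a difference of -0.04 (adjusted p = 0.72). The Man2b1 call was lost in 5 of 14 alternatives at 12 h, in 1 at 24 h and in 4 at 48 h. Without the third CsA array at 12 h, 4 genes were lower: Mitf at -0.41 (limma adjusted p = 0.00096), Mcoln2 at -0.44 (0.0096), Lipa at -0.25 (0.0088) and Man2b1 at -0.24 (0.017). Ctss was then at -0.15 with an adjusted p of 0.054.

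At 48 h Glb1 was higher with CsA, at 970.6, 1014 and 965, against 823, 830.1 and 863 with Flt3-L alone (log2 0.23, SE 0.056, limma adjusted p = 0.016), a call lost in 4 of 14 alternatives. At 11 days the higher genes, besides both mucolipins, were 2 membrane proteins, a hydrolase and a growth factor precursor. Scarb2, the membrane protein that carries beta-glucocerebrosidase to lysosomes, gave 1756, 1797 and 1764 with CsA, against 1457, 1453 and 1462 without it (1.22-fold, log2 0.28, SE 0.053, limma adjusted p = 0.0004). Npc1 gave 4572, 4629 and 4695 with CsA, against 4077, 3829.9 and 3944 without it (1.17-fold, log2 0.23, SE 0.046, limma adjusted p = 0.00091). These groups did not overlap. Gaa, which breaks down glycogen, gave 1214, 1253 and 1316 with CsA, against 1079, 946 and 1181 without it (log2 0.24, SE 0.071, limma adjusted p = 0.023). Grn, the precursor of the granulins, gave 6723, 6823 and 6944 with CsA, against 6103, 6279 and 6336 without it (log2 0.13, SE 0.041, limma adjusted p = 0.038). Gaa and Grn did not overlap between groups, but Gaa lost its call in 4 and Grn in 8 of 14 alternatives. Without the second Flt3-L array at 11 days, 3 genes were called higher, and across single arrays left out the count ranged from 3 to 7.

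No cathepsin was called with CsA at 24 h, 48 h or 11 days. Ctsk had 851, 732 and 819 with CsA at 11 days, against 1004, 847 and 869 with Flt3-L alone (log2 -0.18, interval -0.43 to 0.07, adjusted p = 0.39). Over the same arrays the 8 osteoclast markers summed to 2662 to 3169 with CsA and 5722 to 5958 without it, with 4 lower and none higher. Dcstamp among them was 3.67-fold lower with CsA. Ctsc gave 2916, 2671 and 2922 with CsA, against 2240, 2365 and 2719.8 without it (log2 0.22, adjusted p = 0.054), and these arrays overlapped. No V-ATPase gene among the 6 was called with CsA at any time.

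Among the further lysosome genes at 11 days, CsA raised 6 and lowered 6 of 22 hydrolases, where 4.92% of all genes were higher and 7.08% lower. Acp5, the tartrate-resistant phosphatase that is also 1 of the 8 osteoclast markers, was 3.75-fold lower (log2 -1.91, limma adjusted p = 9.9e-16) and was already lower at 12 h (log2 -0.34, limma adjusted p = 0.0048). Arsb was lower by 0.61 (log2 -0.61) and the heparan sulfatase Sgsh was higher by 0.59. Of 12 nutrient-sensing genes 4 were higher and 1 lower, with 0.81 for Rragd and -0.51 for Rragb. Of 9 sorting genes 2 were higher and 1 lower, Gnptg at 0.32 and Gnptab at -0.27. Of 13 other V-ATPase genes 2 were higher and 1 lower, of 14 other membrane proteins 3 higher, of 4 cathepsin inhibitors 2 lower, and of 13 autophagy genes 1 higher, a share near that of all genes.

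Cell type markers also differed with CsA. At 11 days the sum of 12 conventional dendritic cell markers was 15732 to 19101 with CsA and 24613 to 26034 without it, with 11 of 12 lower. The sum of 12 neutrophil and granule genes was 2006 to 2757 with CsA and 4658 to 5132 without it, with 8 of 12 lower. The monocyte and macrophage sum was 41257 to 42156 with CsA and 41883 to 43281 without it, with 3 of 13 lower, and at 12 h it was 16243 to 17947 with CsA and 17413 to 18168 without it, with 4 of 13 lower. At 11 days the sum of 7 plasmacytoid dendritic cell markers was 5389 to 5563 with CsA and 4653 to 4884 without it. Of these 7, 3 were higher, Cox6a2 (log2 1.63), Tlr7 (0.28) and Bst2 (0.18). Another 3 were lower, Ccr9 (log2 -0.61), Siglech (-0.57) and Tlr9 (-0.20). The sum of 8 erythroid markers was 4634 to 5211 with CsA and 3685 to 3918 without it, with 1 higher and 1 lower, and that of 7 B-lineage markers was 554 to 594 with CsA and 1455 to 1770 without it, with 4 lower. The part of these markers in the CsA differences of the lysosome genes was not tested.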

How the data were processed

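Per the submitters' processing notes, the authors summarised probe sets with RMA, with no version given. The deposited values are linear intensity, and log2 was taken here. Of 28815 probe sets, 21780 carried a single gene symbol in the platform annotation, 1605 several and 5430 none; annotated probe sets were updated to RefSeq symbols by Entrez ID. A model with a mean for each group was fitted to all 27 arrays (lmFit and eBayes of limma 3.58.1, R 4.3.3). The 2-sided p-values were adjusted by Benjamini-Hochberg over 19935 genes, and those under 0.05 were called. SE come from this model, and 3 arrays a group limit the precision. The fit was tested on simulated data. Tables used Python 3.11.15, pandas 2.3.3 and numpy 2.4.6, and plots matplotlib 3.10.9. Genes with values by array were, per comparison, up to 5 called members with the largest rise and up to 5 with the largest fall; Mitf, Tfeb, Tfe3, Tfec, Mcoln1, Mcoln2, Lamp1, Ctsl, Ctsk and Lipa were added. The further lists were named by their 3 largest called changes at most. Neu1, Atp6v1a, Ctsd, Arsb, Dcstamp and the genes named for their timing were chosen after their values were seen. The members and all lists were chosen with earlier results of these data known. No pairing is stated in the labels. Arrays with equal replicate numbers deviated together, with all 3 correlations over 0.1, for CsA at 24 h and 48 h, Flt3-L at 12 h and 24 h against unstimulated cells, and 48 h against 24 h. Alternatives were a filter on the dimmest genes, quantile or median scaling, only the groups compared, the mean of probe sets, array weights, trended variances, a replicate block and each array left out. Coordinates were used only for promoters.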

Additional observations from a re-analysis of the deposited data

Results flagged for a closer look

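For 4 genes the CsA difference at 11 days minus the mean of the differences at 12 h, 24 h and 48 h passed an adjusted p of 0.05 in limma, against 5.21% of all genes in that direction. For Mcoln2 it was 0.77 on the log2 scale (SE 0.11, limma adjusted p = 1.5e-05), with 3 of 3 CsA arrays below all Flt3-L arrays at 12 h and 3 of 3 above them at 11 days. For Scarb2 it was 0.31 (SE 0.061, limma adjusted p = 0.0011). For Ctsc it was 0.34 (SE 0.086, limma adjusted p = 0.0099), with CsA differences of -0.09, -0.17 and -0.10 before 11 days and 0.22 at 11 days. For Man2b1 it was 0.20 (SE 0.065, limma adjusted p = 0.042), and that call was lost in 15 of 32 alternatives, while the other 3 kept theirs in all 32. No gene was called in the lower direction, against 6.70% of all genes. Without the third CsA array at 12 h the same differences were 0.76 for Mcoln2, 0.30 for Scarb2, 0.31 for Ctsc and 0.21 for Man2b1, and all 4 were still called.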

How the results depend on the processing

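For Flt3-L at 11 days against unstimulated cells, none of 574 checks of single genes changed direction or call. Over all 12 comparisons, 7387 of 7626 checks kept both, 124 lost a call, 1 reversed and the others gained a call. The reversed one, Psap at 11 days against 48 h, was 0.11 and became -0.02 after quantile normalization. Counts of CsA calls moved more. At 12 h the 5 lower genes became 8 with the filter on dim genes, 9 with quantile normalization, 3 with medians subtracted, 2 with only the groups compared, 10 with array weights, 9 with trended variances and 8 with the replicate block, and 3 to 4 with an array left out (3 without the second or the third Flt3-L array or the first CsA array); array weights gave 1 higher gene. At 24 h the 1 lower gene became 2 with quantile normalization or trended variances and 0 with only the groups compared. At 48 h the 1 higher gene became 3 with the filter, 4 with quantile normalization, 0 with only the groups compared and 3 with trended variances, and the 1 lower gene became 2, 3, 0 and 2 under the same settings, 3 with array weights and 2 with the replicate block; with an array left out both ranged from 0 to 1, the higher call ending without the first or second Flt3-L or the second CsA array, the lower without the third Flt3-L or the first or the third CsA array. At 11 days the 6 higher genes became 3 with only the groups compared and 10 with trended variances, and 3 to 7 with an array left out (3 without the second Flt3-L array); trended variances gave 2 lower genes in place of 1. The 4 genes with a higher CsA difference at 11 days than before became 7 with trended variances and 3 to 7 with an array left out (7 without the first 11-day Flt3-L array), and in the lower direction 0 became 1 with the filter, medians subtracted, only the groups compared, the mean of probe sets, trended variances or the replicate block, and 0 to 2 with an array left out (2 without the third 12 h CsA array). For Flt3-L alone, the 2 lower genes at 12 h were 1 to 2 with an array left out (1 without the third Flt3-L array), the 1 at 48 h was 0 with only the groups compared and 0 to 1 with an array left out (0 without the second or the third unstimulated or the first or the third Flt3-L array), and the 1 lower at 11 days than at 48 h was 3 with quantile normalization. With only the groups compared, fewer arrays estimate the spread; the cause of the other changes was not tested. Where equal replicate numbers deviated together by the rule above, the replicate block moved counts by over 1.5 times only for genes lower with CsA at 48 h, where Mitf was added. CsA at 12 h fell outside that rule, with 2 of 3 correlations over 0.1, and the block moved its lower genes from 5 to 8. The array count, 3 a group, limits what small CsA differences can be called.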
